A study of Homo sapiens with 6 samples.

Results

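The mRNAs described here are those of the DEAD and DEAH box helicases in nuclear extracts of HCT116 cells, a human colorectal carcinoma line, before and after immunoprecipitation of ORC1, which belongs to the complex that licenses replication origins. The members were the genes whose symbol starts with DDX or DHX and a digit. Of 67 such symbols in the table, 13 pseudogenes and 2 antisense genes were set aside and DDX3Y had no entry, leaving 52 of 23013 genes, 36 of them DDX and 16 DHX. The native RNA immunoprecipitation (RIP) was made from untreated cells without crosslinking, in replicates 1, 2 and 3. Each replicate has an input library of nuclear RNA taken without antibody and an ORC1 IP library obtained with an ORC1 antibody whose source the labels give as Bruce Stillman, so each group held n = 3 libraries of total RNA. The question was which of these mRNAs were recovered with ORC1 above their level in the input. All 6 libraries came from 1 cell line, a control IgG precipitation was not analysed here, and nothing in the labels says whether replicates were separate cultures, so p-values measure only the spread between these libraries.

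Between 13703033 and 36008733 reads per library fell on genes, with the 3 inputs at or under 17248924 and the 3 ORC1 IPs at or above 25134156. A normalised count is the read count of a gene divided by a single factor for its library. The libraries carried the 6 epithelial transcripts looked for, with KRT8 between 22866 and 72708 normalised counts in the inputs, while the liver transcript ALB stayed between 0 and 6.97 in all libraries. The collagen transcript COL1A1 was at 161 to 298 in the inputs and 432 to 787 in the ORC1 IPs, and its part in the results was not tested. As the libraries are bulk, more ORC1-associated copies per cell and more cells with such copies cannot be told apart.

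DEAD and DEAH box proteins use ATP to unwind short RNA duplexes or to strip proteins from RNA, and are named after the residues of their motif II, which takes part in ATP hydrolysis. Different members drive the spliceosome through its conformational steps, release mRNA at the nuclear pore, mature ribosomal RNA in the nucleolus, prepare mRNA for translation or detect viral RNA. In this experiment it is their mRNAs, not the proteins, that were measured.

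The motif II codons of 8 members are shown because they mark the family to which each mRNA belongs, and because the results turn on these genes. Each window is 30 bases of the GENCODE v44 coding sequence on GRCh38, 5′ to 3′ on the transcript strand, with the 4 motif codons in capitals. The motif is DEVH in DDX60 and DDX60L, DEIH in DHX36 and DHX9, DEAD in DDX5, DDX18 and DDX24, and DEAH in DHX15. Both DEVH windows cross an exon junction. The others lie within 1 exon, at chr3:154304921-154304950 on the minus strand (DHX36), chr1:182867008-182867037 on the plus strand (DHX9), chr17:64503236-64503265 on the minus strand (DDX5), chr2:117822183-117822212 on the plus strand (DDX18), chr14:94060580-94060609 on the minus strand (DDX24) and chr4:24556314-24556343 on the minus strand (DHX15).
DDX60: gttatatttGATGAGGTTCATtgtcttggt
DDX60L: gttatatttGATGAGGTCCATtatcttggc
DHX36: atcgtacttGATGAAATCCATgaaagaaat
DHX9: gtaattgtaGATGAAATACATgaaagagat
DDX5: cttgtccttGATGAAGCAGATagaatgctt
DDX18: ctggttattGATGAAGCTGATcgtatcttg
DDX24: ctggtagtgGATGAGGCTGACcggatggtt
DHX15: ataattcttGATGAGGCTCATgagaggaca

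Across the family, DDX60 was the only mRNA called higher in the ORC1 IP, none was called lower, and the median of the members was above 0 in replicates 1 and 3 and below 0 in replicate 2. The 2 lists of related genes described below had medians split the same way. A gene was tested when its mean over the 6 libraries reached 10 normalised counts, which 51 of the 52 members did. The exception was DDX25, a helicase known from the testis, at 6.33, 1.58 and 0 normalised counts in the inputs and 3.45, 8.13 and 5.22 in the ORC1 IPs. Differences are ORC1 IP minus input on the scale of log2(normalised count + 1), tested with limma over 16513 genes with Benjamini-Hochberg adjusted p under 0.05 as the threshold. Of the 51 members, 1 was called higher (1.96%), against 2.28% of all genes tested. None was called lower, against 1.42% of all genes, and none had a lower level at an unadjusted limma p under 0.05, against 9.45% of all genes. On the recovered reads, edgeR called 1 member higher (2.57% of all genes) and 0 lower (1.31% of all genes), and DESeq2 called 7 higher (6.6% of all genes) and 0 lower (3.57% of all genes). With the replicate number as a block, limma called DDX60 alone (2.62% of all genes). At a looser threshold, a log2 difference over 1 with an unadjusted limma p under 0.05, 8 members were higher (15.7%, against 10.9% of all genes) and 0 were lower (7.25% of all genes). These were DDX10, DDX26B, DDX27, DDX55, DDX60, DDX60L, DHX29 and DHX36. At that threshold DESeq2 gave 16 higher members (31.4%, against 12.7% of all genes), and limma with GC and length adjusted for gave 3 (6.0%, against 9.49%), or 4 with the replicate block added (8.0%, against 9.38%). DDX56 was the 1 lower member at that threshold with DESeq2 (7.13% of all genes) and with library totals (9.24% of all genes). With reads scaled by library totals, no member was called, and calls over all genes went from 376 higher and 234 lower to 88 higher (0.528%) and 98 lower (0.587%). Upper quartile scaling added DDX60L to DDX60 (2.63% of all genes higher), and a joint adjustment for GC and transcript length left 0 members higher (0.56% of all genes).

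The median log2 difference of the 51 members was 0.49, with 40 above 0 and a range from −0.96 (DDX56) to 2.17 (DDX60), while the median of all genes was 0.01. Of all genes, 8375 of 16513 were above 0. DDX members (median 0.50, n = 35) and DHX members (median 0.45, n = 16) had similar medians. Taken by replicate, the median log2 ORC1 IP/input of the members was 1.14 in replicate 1, −0.86 in replicate 2 and 0.78 in replicate 3. The corresponding medians of all genes were −0.01, 0.01 and 0.05. The ratio was above 0 for 45 members in replicate 1 (49.8% of all genes), 16 in replicate 2 (50.3% of all genes) and 42 in replicate 3 (52.1% of all genes). It was above 0 in all 3 replicates for 9 members, DDX19B, DDX26B, DDX42, DDX52, DDX55, DDX60, DDX60L, DHX29 and DHX36 (19.8% of all genes). Member by member, the ratios did not follow that split. Spearman's rho over the 51 members was −0.231 between replicates 1 and 2, 0.23 between 1 and 3 and 0.328 between 2 and 3, against −0.055, 0.526 and 0.376 over all genes, as a description of genes that share the same libraries.

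**Figure D1:**
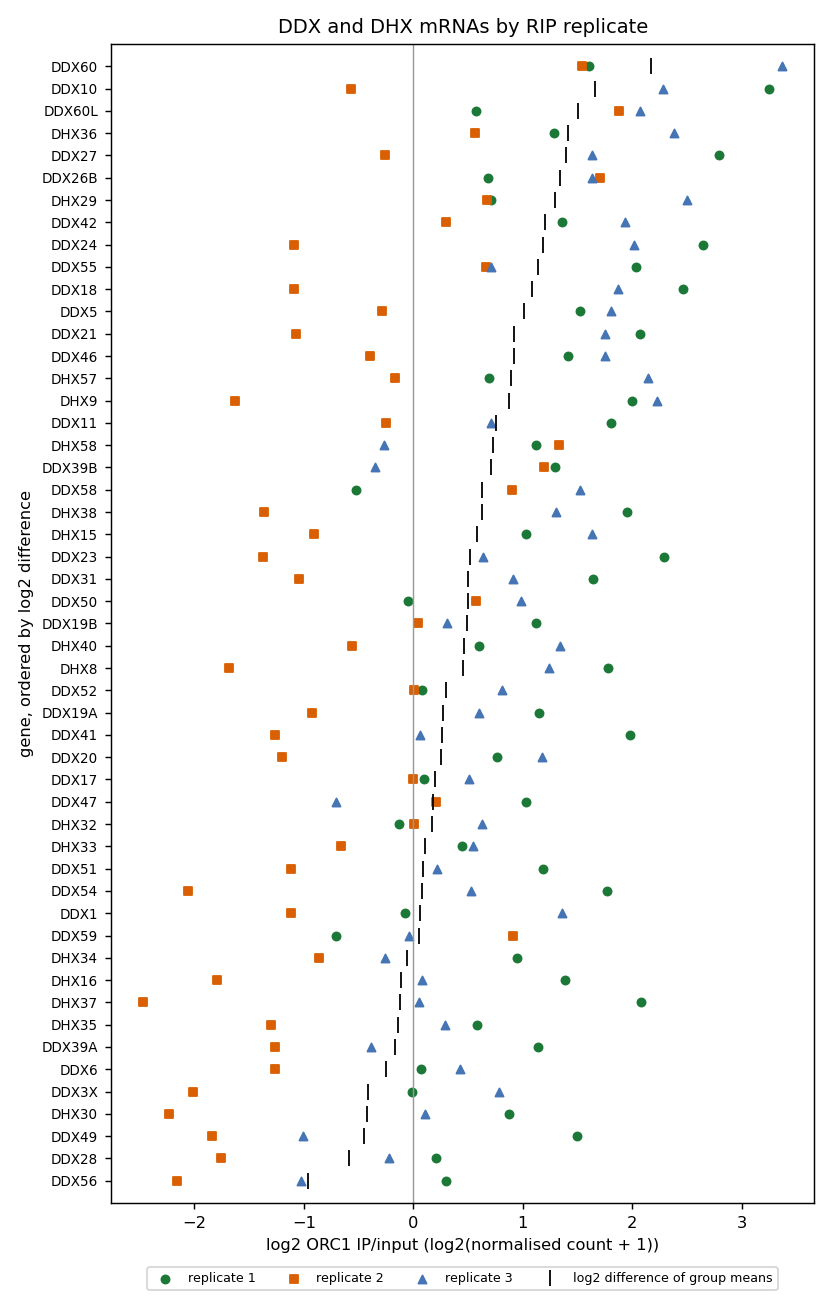
Log2 ratio of the ORC1 IP to the input of the same replicate, on the log2(normalised count + 1) scale, for the 51 tested members, ordered by the log2 difference of the group means (black bars). Circles (replicate 1) and triangles (replicate 3) lie above 0 for 45 and 42 members, and squares (replicate 2) for 16.

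The order of levels among the members was set per kilobase of the longest GENCODE transcript. In the input, DHX9 was highest at 2545 ± 634 normalised counts per kilobase (SD, n = 3), followed by DDX5 at 2420 ± 571, DHX30 at 2246 ± 1037, DDX39A at 2182 ± 672 and DHX15 at 2137 ± 527. The SDs of these 5 overlap, and no test was run between them. Within single inputs, DHX9 was above DHX15 and DDX39A in 3 of 3 and above DDX5 and DHX30 in 2 of 3, and DDX5 was above DHX15 in 3 of 3. Not divided by length, the input mean was 13990 for DDX5 and 11436 for DHX9, so their order depends on the transcript length used. At the other end of the tested members were DDX26B at 12.0 ± 3.43, DDX47 at 10.9 ± 4.85 and DHX58 at 5.09 ± 1.94 normalised counts per kilobase. DDX25, which was not tested, was lower still at 0.355 ± 0.444. Together the 52 members took 0.78% ± 0.0947 of the counts in the inputs and 1.02% ± 0.276 in the ORC1 IPs (SD, n = 3), a difference within the spread (exact permutation test, two-sided p = 0.4, with 0.1 the smallest p that 3 against 3 allows).

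The antiviral RNA sensors and their relatives held the called member and had the highest median of the role groups, 1.12 over 4 genes, with all 4 above 0 (8375 of all 16513 genes). Of these, DHX58 had low counts and the count of DDX58 is uncertain. The group had a median transcript of 5840 bases at 39.3% GC and a median input of 215 normalised counts. All genes had medians of 3283 bases, 48.1% and 336, and the part of these traits was not tested. DDX60 (ENSG00000137628, chr4:168216291-168318883 on the minus strand of GRCh38), an interferon-induced DEVH-box protein linked to RIG-I signalling, was at 262, 238 and 117 normalised counts in the inputs and 798, 693 and 1221 in the ORC1 IPs. Each ORC1 IP was above each input. The log2 difference was 2.17 ± 0.41 (SE; 95% interval 1.29 to 3.05; limma adjusted p = 0.0174), a 4.51-fold difference on that scale. It was at adjusted p = 0.0195 with edgeR on the recovered reads. The limma adjusted p rose to 0.0601 with GC and transcript length adjusted for (log2 difference 1.67), to 0.0653 with total count scaling (1.96), to 0.0769 without ORC1 IP 3 (1.93), to 0.051 without input 2 (2.32) and to 0.153 without input 3 (1.81).

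Its neighbour and paralogue DDX60L (chr4:168356735-168537786, minus strand), of less well defined antiviral function, read 1503, 894 and 912 normalised counts in the inputs and 2223, 3287 and 3826 in the ORC1 IPs. The groups did not overlap, and ORC1 IP 2 was well above every input. The log2 difference of 1.50 ± 0.39 stopped short of the threshold (limma adjusted p = 0.0553), while the adjusted p was 0.0473 with upper quartile scaling, 0.00902 with DESeq2 and 0.0159 without ORC1 IP 2. The limma adjusted p was 0.0566 without ORC1 IP 1 and 0.146 without ORC1 IP 3. It was 0.25 without input 2, 0.324 without input 3 and 0.174 with total count scaling. With GC and length adjusted for it was 0.103 (log2 difference 0.99). DDX60 and DDX60L share 42 stretches of 50 bases, 0.63% of the positions of the DDX60 transcript, so few reads could be split between them. DDX58, which encodes the sensor RIG-I, had a log2 difference of 0.63 (limma adjusted p = 0.449). DHX58, which encodes its regulator LGP2, had one of 0.73 (adjusted p = 0.534, limma), at no more than 16.4 normalised counts in any input. Of the DDX58 transcript, 89.1% of 50-base stretches also occur in an unnamed overlapping protein-coding gene of the annotation, so its count is uncertain.

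**Figure D2:**
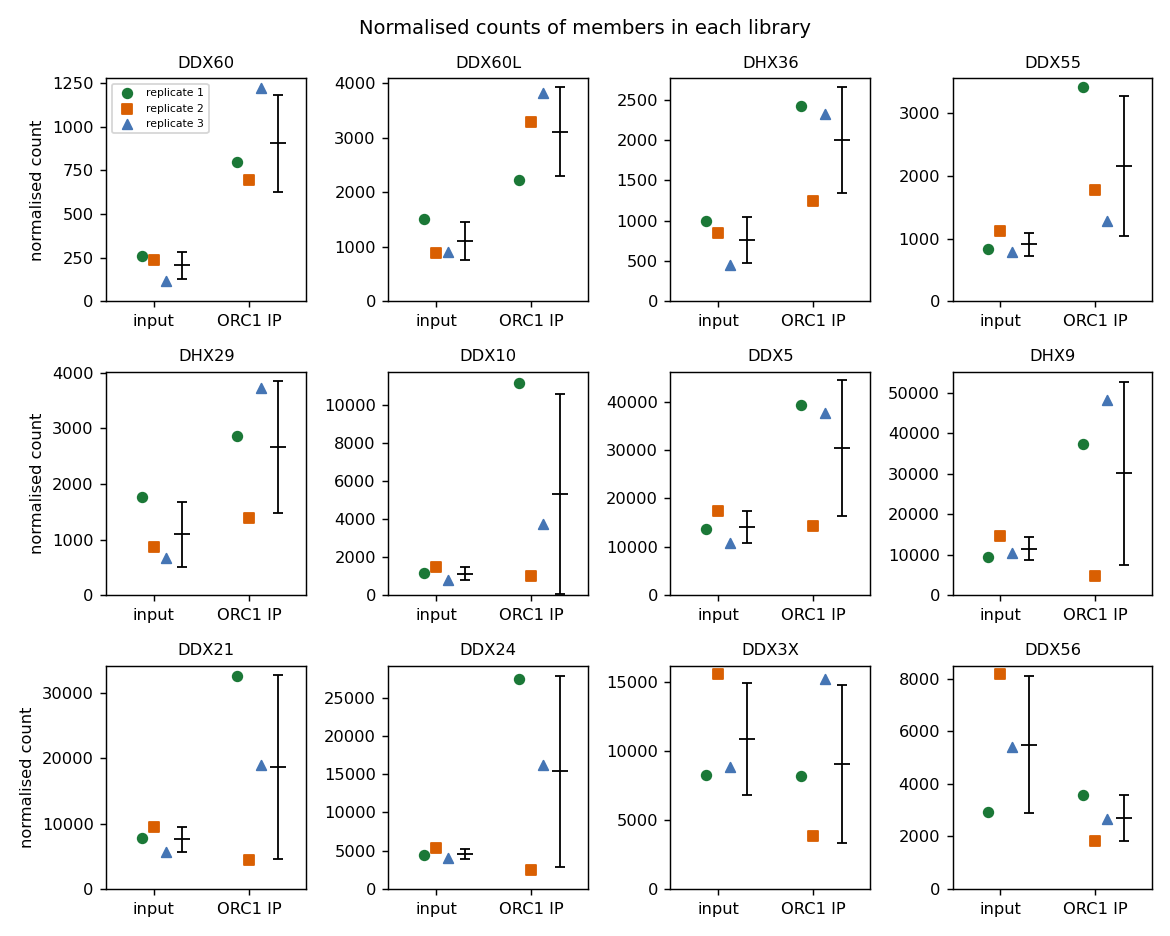
Normalised counts of 12 members in each input and ORC1 IP library, with the mean ± SD of the 3 libraries as bars at the right of each group and all axes starting at 0. The groups do not overlap for DDX60, DDX60L, DHX36 and DDX55, while in DDX10, DDX5, DHX9, DDX21 and DDX24 ORC1 IP 2 lies within or under the range of the inputs and ORC1 IPs 1 and 3 lie above them.

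Each splicing helicase was above the input of the same replicate in replicates 1 and 3 and, with 1 exception, below it in replicate 2. Some of these gaps were small, as for DDX17 with 11384 in ORC1 IP 2 against 11391 in input 2. In replicate 3 the log2 ratio was 0.06 for DDX41 and 0.08 for DHX16. ORC1 IPs 1 and 3 of DHX35, at 740 and 738, were under input 2 at 1117. Of 11 genes, 0 were called higher or lower with limma (0 also past the looser threshold), with a median log2 difference of 0.52. The ratio was above 0 for 11, 1 and 11 of them in replicates 1, 2 and 3 (49.8%, 50.3% and 52.1% of all genes). The medians were 1.41, −1.26 and 1.24. The exception was DDX42, a helicase of the U2 snRNP. It read 5110, 3179 and 3068 normalised counts in the inputs and 13146, 3918 and 11723 in the ORC1 IPs, for a log2 difference of 1.20 ± 0.56 (limma adjusted p = 0.240). DHX15, which takes spliceosomes apart, was at 5844, 8285 and 5285 normalised counts in the inputs and at 11899, 4422 and 16315 in the ORC1 IPs. Its ORC1 IP 2 fell below every input and the other two rose above them, and the log2 difference was 0.58 ± 0.60 (limma adjusted p = 0.622). The log2 differences of DHX38, DHX8 and DHX16, which act around the catalytic steps of splicing, were 0.63, 0.45 and −0.11. Those of DDX46 and DDX23, which act during spliceosome assembly, were 0.92 and 0.52. The remaining splicing genes besides DDX5 and DDX17, DDX41 and DHX35, were at 0.26 and −0.14.

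DDX5, a splicing and transcription cofactor, had the highest mean count of the members. Its normalised counts were 13698, 17429 and 10845 in the inputs and 39202, 14270 and 37717 in the ORC1 IPs. ORC1 IP 2 lay within the range of the inputs and the other two were above it, giving a log2 difference of 1.01 ± 0.75 (95% interval −0.63 to 2.64; limma adjusted p = 0.471). Without ORC1 IP 2 the difference was 1.49 (limma adjusted p = 0.0231). It was 0.76 without ORC1 IP 1 (limma adjusted p = 0.671) and 0.78 without ORC1 IP 3 (limma adjusted p = 0.658). DDX5 lies at chr17:64498254-64508199 on the minus strand of GRCh38, and 252 bases of its exons (2.71%) overlap exons of CEP95 on the opposite strand. No source used here states whether counting used strand, so reads over those bases cannot be assigned to 1 gene. CEP95, a centrosomal protein gene and not a helicase, read 1167, 736 and 607 normalised counts in the inputs and 6352, 2529 and 3256 in the ORC1 IPs. Unlike DDX5 it was above every input in each ORC1 IP, with a log2 difference of 2.21 ± 0.44 (limma adjusted p = 0.0228). That adjusted p was 0.0565 with GC and length adjusted for, 0.0696 without ORC1 IP 3, 0.106 without input 2 and 0.203 without input 3.

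The mRNA export helicases had a median log2 difference of 0.38 over 4 tested genes, and none was called (limma). DDX39A and DDX39B (also UAP56) load export factors on spliced mRNA. DDX39A read 2802, 5347 and 4310 normalised counts in the inputs and 6190, 2236 and 3278 in the ORC1 IPs. DDX39B read 901, 1206 and 790 in the inputs and 2199, 2743 and 622 in the ORC1 IPs. The low library thus differed between the paralogues, ORC1 IP 2 for DDX39A and ORC1 IP 3 for DDX39B, with log2 differences of −0.17 ± 0.49 (limma adjusted p = 0.880) and 0.71 ± 0.51 (adjusted p = 0.452). DDX19A and DDX19B, which release mRNA at the cytoplasmic face of the nuclear pore, had log2 differences of 0.27 ± 0.45 (limma adjusted p = 0.777) and 0.49 ± 0.41 (adjusted p = 0.524). Of their transcripts, 31.0% and 29.0% of 50-base stretches recur in other annotated genes, mostly a readthrough gene, as do 18.3% for DDX39B.

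The ribosome biogenesis helicases were the largest role group, with 16 genes and a median log2 difference of 0.40. The ratio was above 0 for 15, 4 and 13 of them in replicates 1, 2 and 3 (49.8%, 50.3% and 52.1% of all genes). None was called higher or lower (limma). At the looser threshold 3 of the 16 were higher (10.9% of all genes), DDX10, DDX27 and DDX55. DDX10 (chr11:108665058-108940999, plus strand), a factor of the small subunit processome, was at 1169, 1464 and 775 normalised counts in the inputs and 11166, 989 and 3761 in the ORC1 IPs. ORC1 IPs 1 and 3 stood well above the inputs and ORC1 IP 2 among them. The log2 difference was 1.66 ± 0.69 (95% interval 0.17 to 3.14; limma adjusted p = 0.182), and 2.22 with an adjusted p of 0.0105 in DESeq2. In limma it was 2.56 without ORC1 IP 2 (adjusted p = 0.00195) and 0.81 without ORC1 IP 1 (adjusted p = 0.445). With GC and length adjusted for it was 1.14 (limma adjusted p = 0.397). DDX27, which matures the large subunit rRNA, read 1219, 1143 and 777 normalised counts in the inputs and 8442, 956 and 2408 in the ORC1 IPs, with a log2 difference of 1.39 ± 0.63 (limma adjusted p = 0.221; DESeq2 adjusted p = 0.0266). In limma this was 2.13 without ORC1 IP 2 (adjusted p = 0.00639) and 0.56 without ORC1 IP 1 (adjusted p = 0.565).

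DDX55, a large subunit assembly factor, differed from both in that ORC1 IP 2 was not low. It had 835, 1121 and 782 normalised counts in the inputs and 3423, 1772 and 1280 in the ORC1 IPs, with no overlap of the groups and a log2 difference of 1.14 ± 0.42 (limma adjusted p = 0.135). Its exons overlap 538 bases of EIF2B1 on the opposite strand, 9.41% of the total. DDX24, a nucleolar helicase, had 4404, 5325 and 4030 normalised counts in the inputs and 27413, 2494 and 16218 in the ORC1 IPs. DDX21, which links rRNA transcription and processing, had 7788, 9428 and 5628 in the inputs and 32601, 4497 and 18987 in the ORC1 IPs. In both genes ORC1 IP 2 was below every input, and the log2 differences were 1.18 ± 0.76 (limma adjusted p = 0.398) and 0.92 ± 0.74 (adjusted p = 0.509). DDX18, an rRNA processing factor, followed the same pattern with a log2 difference of 1.08.

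The lowest log2 difference of the family was in the same role group. DDX56, a nucleolar helicase of large subunit assembly (chr7:44565804-44575051, minus strand), was at 2920, 8165 and 5400 normalised counts in the inputs and 3587, 1831 and 2653 in the ORC1 IPs. The ranges overlapped through input 1, and the log2 difference of −0.96 ± 0.49 did not pass the test (95% interval −2.03 to 0.11; limma adjusted p = 0.281). DDX49, also a nucleolar factor, had a log2 difference of −0.45 ± 0.53 (limma adjusted p = 0.674). DDX47, an rRNA processing factor, was at or under 65.6 normalised counts in every library, and 36.5% of its exon bases overlap APOLD1 on the same strand, so its count is uncertain. DDX31, DDX51, DDX52, DDX54, DHX33 and DHX37, which act on pre-rRNA or ribosomal subunits, lay between −0.12 (DHX37) and 0.50 (DDX31) on the log2 scale, and none passed the test.

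The translation and cytoplasmic mRNP group had a median log2 difference of 0.00 over 6 genes and held members at both ends. DHX36 (chr3:154272546-154324487, minus strand), which unwinds G-quadruplexes, read 998, 845 and 447 normalised counts in the inputs and 2425, 1248 and 2330 in the ORC1 IPs. No ORC1 IP was as low as any input, and the log2 difference was 1.41 ± 0.42 (limma adjusted p = 0.0798; 0.0313 in DESeq2 and 0.00709 with limma without ORC1 IP 2). The limma adjusted p was 0.175 without ORC1 IP 1 and 0.195 without ORC1 IP 3. It was 0.428 without input 3 and 0.193 with GC and length adjusted for (log2 difference 0.90). DHX29, which helps the small ribosomal subunit to scan structured leaders, had 1757, 873 and 659 normalised counts in the inputs and 2868, 1386 and 3727 in the ORC1 IPs. Its ORC1 IP 2 was below input 1, and the log2 difference was 1.29 ± 0.48 (limma adjusted p = 0.139).

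DDX3X, a translation initiation helicase, was at 8270, 15572 and 8847 normalised counts in the inputs and 8216, 3855 and 15220 in the ORC1 IPs, with a log2 difference of −0.41 ± 0.64 (limma adjusted p = 0.757). The inputs and ORC1 IPs overlapped broadly, and the difference was 0.10 without ORC1 IP 2 and −0.97 with GC and length adjusted for. DDX6, a decapping and repression factor of P-bodies, had a log2 difference of −0.25 ± 0.56 (limma adjusted p = 0.842), 0.20 without ORC1 IP 2 and −0.71 with GC and length adjusted for. DDX1, a factor of tRNA ligation, and DHX34, a nonsense-mediated decay factor, had log2 differences of 0.06 and −0.06. The mitochondrial helicases DHX30 and DDX28, which act on the mitochondrial ribosome, had log2 differences of −0.42 ± 0.63 (limma adjusted p = 0.749) and −0.59 ± 0.41 (adjusted p = 0.434). Without ORC1 IP 2 the value for DHX30 was 0.15.

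The genome maintenance and snRNP assembly group held DHX9, DDX11 and DDX20, with a median log2 difference of 0.75. DHX9, which resolves RNA-DNA hybrids and other structured nucleic acids, had 9313, 14671 and 10325 normalised counts in the inputs and 37337, 4742 and 48174 in the ORC1 IPs. It showed the split between ORC1 IPs at high counts, with ORC1 IP 2 below every input and ORC1 IPs 1 and 3 above every input. Its log2 difference was 0.87 ± 0.88 (95% interval −1.03 to 2.77; limma adjusted p = 0.614), and 1.92 without ORC1 IP 2 (limma adjusted p = 0.00644). It was 0.43 without ORC1 IP 1 (limma adjusted p = 0.843) and 0.25 without ORC1 IP 3 (limma adjusted p = 0.914). DDX11, a cohesion helicase with a DEAH motif, had a log2 difference of 0.75 (limma adjusted p = 0.317), and 36.8% of its 50-base stretches recur elsewhere, mostly in the pseudogene DDX12B. DDX20, a gemin of the SMN complex, had a log2 difference of 0.25 (limma adjusted p = 0.798). Outside these groups, DDX26B was at 104, 78.8 and 58.5 normalised counts in the inputs and 168, 258 and 183 in the ORC1 IPs, without overlap (log2 difference 1.34 ± 0.41, limma adjusted p = 0.0848; DESeq2 adjusted p = 0.0345). The limma adjusted p was 0.25 with GC and length adjusted for (log2 difference 0.83), 0.406 without input 3 (1.13) and 0.067 without ORC1 IP 2 (1.15). GENCODE v44 names this gene INTS6L, a relative of an Integrator subunit, and it is not regarded as a helicase. DHX57, DHX40, DHX32 and DDX59 had log2 differences of 0.89, 0.46, 0.17 and 0.05, none past the test.

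How far ORC1 IP 2 shaped these values was measured by repeating the test without it, a setting that leaves 2 ORC1 IPs against 3 inputs. Then 17 of the 51 members were called higher (33.3%, against 11.9% of all genes) and none lower (6.38% of all genes). At the looser threshold 24 were higher (47.1%, against 15.7% of all genes). The median log2 difference was 0.79, and 0.02 over all genes. The members called were DDX5, DDX42, DDX46, DHX8 and DHX38 among splicing genes, DDX10, DDX18, DDX21, DDX24 and DDX27 among ribosome biogenesis genes, and DDX60, DDX60L, DHX9, DHX29, DHX36, DHX40 and DHX57. DDX23 (limma adjusted p = 0.0506), DHX15 (limma adjusted p = 0.0522) and DDX55 (limma adjusted p = 0.0522) came just short.

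**Figure D3:**
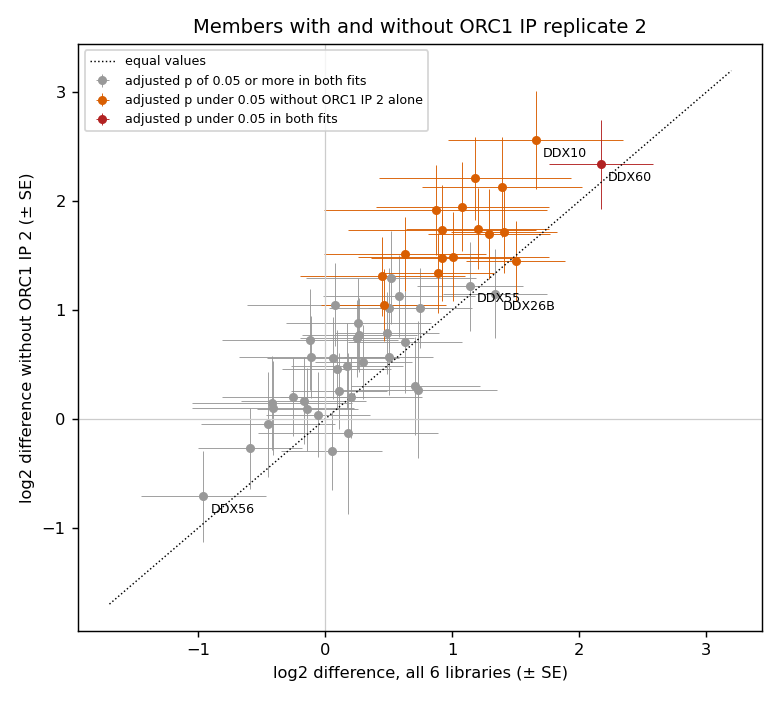
Log2 difference with all 6 libraries (x axis) against the log2 difference without ORC1 IP 2 (y axis) for the 51 tested members, with SE bars from limma and a dotted line of equal values. DDX60 passed in both fits (red), 16 members passed without ORC1 IP 2 alone (orange), and DDX56 was lowest in both.

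Set against single libraries, ORC1 IP 2 was the lowest of the 3 ORC1 IPs for 40 members (78.4%, against 40.3% of all genes) and below all 3 inputs for 26 (51.0%, against 38.2%). ORC1 IPs 1 and 3 were both above all inputs for 28 members (54.9%, against 26.0%), and 13 members combined both traits (25.5%, against 7.41%), DHX9, DHX15, DDX21 and DDX24 among them. All 3 ORC1 IPs were above all inputs for 5 members, DDX26B, DDX55, DDX60, DDX60L and DHX36 (9.8%, against 12.7%), and below them for 0 members (13.5% of all genes). The members are more abundant than most genes, with a median input of 1766 normalised counts against 336. Among genes with an input mean of at least 1000, 65.7% of 35 members had ORC1 IP 2 below all inputs against 63.8% of all such genes, and 40.0% were called higher without ORC1 IP 2 against 17.1%. The ratio was above 0 in replicates 1 and 3 but not in 2 for 71.4% of these 35 members, against 29.4%.

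The split between replicates was read under other scalings too. With library totals, the medians of all genes moved to −0.72, 0.57 and −0.42 in replicates 1, 2 and 3, and those of the members to 0.42, −0.30 and 0.30. The members stayed above all genes in replicates 1 and 3 and below them in replicate 2. The number of members above 0 in replicates 1 and 3 but not in 2 was 28 (15.3% of all genes) with the deposited values and 12 with library totals (4.6% of all genes).

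Paralogues share much of their sequence and function, so their ratio within a library was compared for 5 pairs. The log2 ratio of DDX5 to DDX17 was 0.53, 0.61 and 0.30 in the inputs and 1.94, 0.33 and 1.59 in the ORC1 IPs. ORC1 IPs 1 and 3 were above the inputs and ORC1 IP 2 was among them. DDX17 itself read 9502, 11391 and 8832 normalised counts in the inputs and 10207, 11384 and 12535 in the ORC1 IPs, a log2 difference of 0.20 ± 0.56 (limma adjusted p = 0.873). The ORC1 IP minus input difference of the log2 ratio was 0.81 for DDX5 over DDX17, −0.88 for DDX39A over DDX39B, −0.22 for DDX19A over DDX19B, 0.42 for DDX21 over DDX50 and 0.67 for DDX60 over DDX60L. None exceeded the spread between libraries, with two-sided exact permutation p of 0.3, 0.4, 0.6, 0.8 and 0.2 in that order (adjusted over the 5 pairs 0.667, 0.667, 0.75, 0.8 and 0.667; smallest possible p = 0.1). Without ORC1 IP 1 the DDX21 over DDX50 difference was −0.28. DDX50, a nucleolar paralogue of DDX21, had a log2 difference of 0.50 ± 0.35 by itself (limma adjusted p = 0.434).

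Genes close to the family were read from 2 further lists. RNA helicases without a DDX or DHX symbol had a median log2 difference of 0.57 over 18 tested of 21 listed, with 16 above 0 (8375 of all 16513 genes). Their medians were 0.91, −0.68 and 1.37 in replicates 1, 2 and 3. The ratio was above 0 for 18, 5 and 16 of them (49.8%, 50.3% and 52.1% of all genes). Limma called 0 of them in either direction (2.28% of all genes higher, 1.42% lower). Of these, 3 were higher at the looser threshold (10.9% of all genes), DICER1 (1.62), IFIH1 (1.59), which encodes the sensor MDA5, and AQR (1.09). EIF4A1, the helicase of the cap-binding complex eIF4F, was lower (−1.33 ± 0.61, limma adjusted p = 0.228), as were 7.25% of all genes. It read 113, 433 and 194 normalised counts in the inputs and 170, 97 and 35 in the ORC1 IPs, so the groups overlapped. Its relatives EIF4A2 and EIF4A3 had input means of 4536 and 8487. The reason for the low EIF4A1 count was not tested. Of the list, DESeq2 called 2 higher (6.6% of all genes), edgeR called 0 (2.57%), and limma without ORC1 IP 2 called 8 (11.9%). Cofactors that bind DEAD or DEAH box helicases, many with G-patch or MIF4G domains, had a median of 0.66 over 21 genes, with 19 above 0 (8375 of all 16513 genes). Their medians were 1.59, −0.41 and 0.77 in replicates 1, 2 and 3, with 20, 6 and 20 of the 21 above 0. The split between replicates seen in the members was thus present in both lists. The 1 cofactor called (2.28% of all genes) was GPATCH8 (log2 difference 1.84 ± 0.46, limma adjusted p = 0.0478). It read 1323, 1157 and 811 normalised counts in the inputs and 7010, 2282 and 3551 in the ORC1 IPs. With the replicate number as a block, limma called 2 cofactors (2.62% of all genes). CWC22, the spliceosomal partner of EIF4A3, had the highest difference of the list (2.07 ± 0.57, limma adjusted p = 0.0622), and GLE1, the activator of DDX19 proteins, the lowest (−0.18). Without ORC1 IP 2, 11 of the 21 were called higher (11.9% of all genes). Leaving out any of the other 5 libraries left 0. So did total count scaling (0.528% of all genes) and the adjustment for GC and length (0.56% of all genes).

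The log2 differences were set beside the length and base composition of the transcripts. Across the 50 tested members with a GENCODE match, Spearman's rho between the length of the longest transcript and the log2 difference was 0.422, against 0.336 over 16062 genes. By replicate it was 0.0715, 0.138 and 0.602 in replicates 1, 2 and 3 (all genes 0.156, 0.155 and 0.437). For GC content rho was −0.439 (all genes −0.183), at 0.308, −0.429 and −0.661 by replicate (all genes 0.135, −0.218 and −0.326). With the level in the input, rho was 0.214, −0.628 and 0.0323 by replicate (all genes 0.0643, −0.35 and 0.0403). These are descriptions across genes that share libraries, length and base composition with each other, and in the last case the input enters both axes. The median longest transcript of the members was 4526 bases, against 3283 for all genes. With both adjusted for, the median log2 difference of the members was 0.47.

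**Figure D4:**
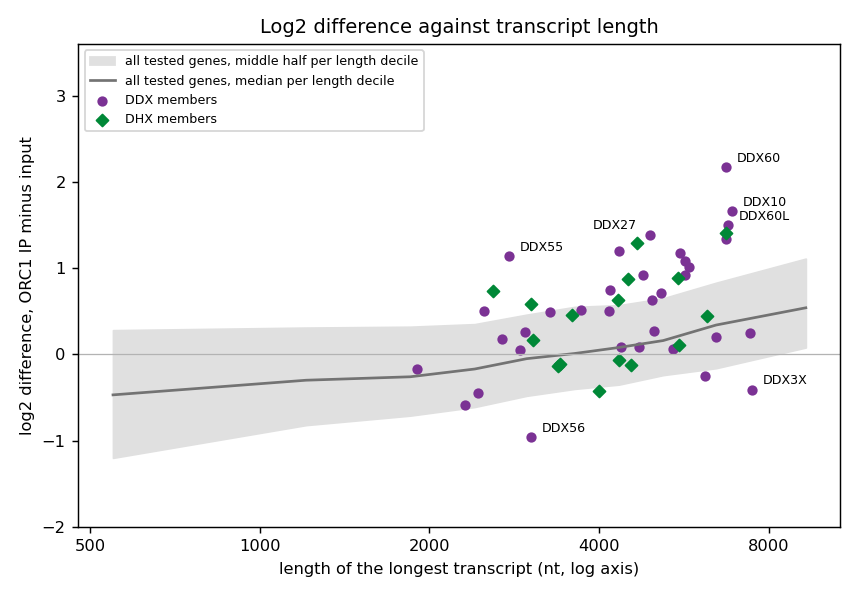
Log2 difference, ORC1 IP minus input, against the length of the longest GENCODE transcript (log axis) for 50 tested members, with the median (line) and interquartile band of all tested genes by length decile. DDX60 lies farthest above the line at 2.17, and DDX56 and DDX3X lie below it at −0.96 and −0.41.

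Tandem GAA repeats in RNA were a sequence feature the study followed, so the members were searched for GAAGAAGAA, 3 or more units in a row on the transcript strand. It was present in the longest transcript of 15 of 50 members (30.0%) and of 12.9% of all genes. A run from DDX27, DDX10, DDX24, DHX29, DDX55 and DDX18 each is shown because these are the members with a log2 difference over 1 whose coding sequence holds one. They lie at chr20:49224961-49224990 (plus), chr11:108723235-108723264 (plus), chr14:94051243-94051272 (minus), chr5:55276303-55276332 (minus), chr12:123620038-123620067 (plus) and chr2:117819677-117819706 (plus) of GRCh38, with the repeat in capitals.
DDX27: ggatcgGAAGAAGAAGAAGAAGAAaggaca
DDX10: gaagaacagGAAGAAGAAGAAgacgatgaa
DDX24: ctccaagcaGAAGAAGAAGAAgacaaagaa
DHX29: tctggaagagGAAGAAGAAgtaaccattaa
DDX55: caaaataactGAAGAAGAAtttgagaaggg
DDX18: agggaaatctGAAGAAGAAagtgccgagac

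DDX27 had the longest run of the members, 6 units. In DDX55 and DDX18 the run lies in the coding transcript used for the sequences but not in the longest one. By the longest transcript, members with the repeat had a median log2 difference of 0.45 and those without it 0.50, with median transcript lengths of 4664 and 4338 bases. Over all genes the medians were 0.58 with the repeat and −0.06 without it, at median lengths of 4891 and 3092 bases. By any annotated transcript, 19 of 50 members held the repeat (38.0%, against 15.5% of all genes), and the order of the medians turned, to 0.71 with the repeat and 0.46 without it (0.53 and −0.07 over all genes). In the longest transcripts of DDX60, DDX60L and DHX36 there was no such run, while DDX54, a nucleolar helicase with a run of 4 units, had a log2 difference of 0.08.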

How the data were processed

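Native ORC1 RIP-seq and input libraries were made from HCT116 nuclei. According to the study's methods and the labels, reads were trimmed (Trimmomatic), mapped to hg19 (STAR) and counted by gene (featureCounts), after which the authors scaled them in DESeq2. The deposited signal values are these gene counts divided by 1 factor per library; whole reads were recovered for 100% of values (tolerance 0.001). Strand setting and treatment of multi-mapping reads are not given in the sources used here. Deposited columns with the authors' own comparison (mean, fold change, its error, test statistic and p-values) were not used.

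Values were tested with limma 3.58.1 (R 4.3.3) as log2(normalised count + 1), without a block, at a mean of at least 10. Alternatives used edgeR 4.0.16 and DESeq2 1.42.0 on recovered reads, other scalings, filters and pseudocounts, a GC and length correction, omission of each library, and the replicate number as a block. The labels tie each ORC1 IP to the input of the same RIP replicate. Their deviations from the group means correlated at −0.322, −0.24 and 0.215 over 16513 genes. Exact permutation tests used SciPy 1.17.1. Scripts were tested on simulated counts. Gene positions, lengths and sequences came from GENCODE v44 (GRCh38) by Ensembl identifier (50 tested members; DDX52 had no match), and no coordinate was converted. Full statistics were given for members past the threshold, the 6 largest and 6 smallest differences, the 5 highest means, DDX5 with CEP95 and the paralogue pairs. Others named were chosen after their values were seen. Members and lists were chosen with earlier results of these data known.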

Additional observations from a re-analysis of the deposited data

How the results depend on the processing

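Members called higher numbered 1 with all libraries. The count was 7 with DESeq2, 2 with upper quartile scaling and 0 with total count scaling or with the GC and length correction, with or without the replicate block, and ranged from 0 to 17 when 1 library was left out (17 without ORC1 IP 2, and 0 without ORC1 IP 3, input 2 or input 3). At the looser threshold the 8 higher members became 16 with DESeq2, 3 with the GC and length correction, 4 with that correction and the block, and 4 to 24 when 1 library was left out. The 0 lower members became 1 with DESeq2 or total count scaling and 0 to 2 when 1 library was left out. Related helicases called higher went from 0 to 2 with DESeq2 and ranged from 0 to 8 with 1 library left out. Cofactors called higher went from 1 to 5 with DESeq2, 2 with edgeR, 2 with the replicate block and 0 with total count scaling or the GC and length correction, with or without the block, and ranged from 0 to 11 with 1 library left out. Over all genes the share called higher was 2.28% in the main fit, 6.6% with DESeq2, 2.57% with edgeR and 2.62% with the replicate block. It was 11.9% without ORC1 IP 2, 0.528% with total count scaling and 0.56% with the GC and length correction. Members positive in replicates 1 and 3 and not in 2 went from 28 to 12 with total count scaling. With the replicate block, 1 member was called, DDX60 (limma adjusted p = 0.0138). Among the members and the 2 lists, the block without GC correction changed calls only among the cofactors. Over all genes it moved the limma calls from 376 to 433 higher and from 234 to 191 lower. With GC, length and block together, DDX60 had an adjusted p of 0.105 and CEP95 one of 0.0663 (limma).

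The median log2 difference of the members stayed above 0 in every setting run, from 0.25 to 0.79. Values near 0 changed sign. With 1 library left out, the DDX21 over DDX50 ratio ranged from −0.28 (without ORC1 IP 1) to 1.17. DDX17 was at −0.18 with the GC and length correction, with or without the block, and −0.01 with total count scaling, and DDX19A ranged from −0.13 (without ORC1 IP 1) to 0.77. DDX39A was at 0.13 with the GC and length correction, with or without the block, and with 1 library left out ranged from −0.57 to 0.17 (without ORC1 IP 2), with 0.04 without input 2. With 1 library left out, DDX3X ranged from −0.89 to 0.10, DDX6 from −0.57 to 0.20 and DHX30 from −0.79 to 0.15, each highest without ORC1 IP 2. With the GC and length correction, DDX3X was at −0.97 and DDX6 at −0.71, with or without the block. The cause of these changes was not tested. The edgeR fit with the block, the replicate pattern under other scalings, the counts among genes with an input mean of at least 1000, and the search of every transcript for GAA runs were chosen after seeing the data. With 3 libraries a group, members whose 95% interval spans several log2 units, such as DHX9, cannot be placed on either side of 0.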

Other observations

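Among the pseudogenes with DDX or DHX symbols set aside above, 3 chosen after their values were seen had the same highest or lowest ORC1 IP as the gene they derive from. Shared reads between parent and copy were not separated here. DHX9P1 had 590, 1021 and 646 normalised counts in the inputs and 2709, 329 and 3670 in the ORC1 IPs, the same low ORC1 IP 2 as DHX9, with a log2 difference of 1.02 (limma adjusted p = 0.434). It shares 156 stretches of 50 bases with DHX9. DDX10P2 read 36.9, 34.7 and 22.2 in the inputs and 330, 31.4 and 117 in the ORC1 IPs (log2 difference 1.78, limma adjusted p = 0.162), with ORC1 IP 1 highest as for DDX10. DDX18P5, at 60.1, 118 and 55.0 in the inputs and 423, 31.9 and 162 in the ORC1 IPs, likewise had ORC1 IP 2 below and ORC1 IPs 1 and 3 above every input (log2 difference 0.83, limma adjusted p = 0.562).

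Others did not follow the parent. DDX50P1 had log2 ORC1 IP/input of 1.82, 0.95 and 0.42 in replicates 1, 2 and 3, where DDX50 had −0.05, 0.57 and 0.98. DDX12P, a copy of DDX11, also read differently from its parent. It had 111, 169 and 112 normalised counts in the inputs and 473, 471 and 232 in the ORC1 IPs, without overlap, and a log2 difference of 1.53 (limma adjusted p = 0.0572). DDX11 had 847, 1546 and 1051 in the inputs and 2951, 1302 and 1715 in the ORC1 IPs, with ORC1 IP 2 inside the range of the inputs. The difference between copy and parent was not tested.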
